A study of Mus musculus with 4 samples.

Results

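A set of 10 genes of the Bcl2 family were read across the blood leukocytes of the BL/6 and SM/J mouse strains. They were taken by symbol from the gene annotation deposited with the data, which holds 32285 genes, and each of the 10 symbols matched 1 gene: the survival genes Bcl2, Bcl2a1a, Bcl2a1b, Bcl2a1d, Bcl2l1 and Mcl1, the BH3-only genes Bcl2l11 and Bbc3, and the effectors Bax and Bak1. The cells were mononuclear cells of peripheral blood, prepared on a density gradient with removal of platelets and lysis of red cells, and profiled by 3' single-cell RNA sequencing with multiplexing. There were 4 libraries: BL/6 at 12 months, BL/6 at 20 months, SM/J at 12 months and SM/J at 20 months. No allele, transgene or treatment is given for any of them, and the sources used here give neither sex nor number of animals. Both ages of a strain were run together, so the strain and the sequencing run cannot be told apart. Each library carried 3 tag oligos, and the cells led by 1 oligo are called an aliquot below. The labels do not say that an aliquot is an animal, so aliquots are used as a measure of spread and not as replicates.

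Proteins of the Bcl2 family decide whether the outer membrane of the mitochondrion stays intact, the step that commits a cell to intrinsic apoptosis. Bcl2, BCL-XL (the product of Bcl2l1), MCL1 and A1 (the product of the Bcl2a1 genes) hold the effectors BAX and BAK in check, and BH3-only proteins such as BIM (Bcl2l11) and PUMA (Bbc3) bind the survival proteins or activate the effectors. Blood cells differ in which survival protein they depend on: mature lymphocytes are known for BCL2, platelets for BCL-XL, myeloid cells for MCL1 and A1, and MCL1 protein turns over within hours. Mice carry several near-identical copies of the A1 gene on chromosome 9.

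The 3 A1 copies are shown first because their counts carry a limit that the other 7 genes do not. On GRCm38, in the GENCODE annotation, Bcl2a1a lies at chr9:88956900-88962419 on the plus strand, Bcl2a1b at chr9:89199209-89207827 on the plus strand and Bcl2a1d at chr9:88723285-88731914 on the minus strand. All 3 are protein coding, and their 519 coding bases differ at 11 positions between Bcl2a1a and Bcl2a1b (97.88% identity), at 7 between Bcl2a1a and Bcl2a1d and at 6 between Bcl2a1b and Bcl2a1d. The first 60 coding bases hold 6 positions at which the copies differ, and the capitals mark them.
Bcl2a1a, chr9:88957051-88957110, plus strand: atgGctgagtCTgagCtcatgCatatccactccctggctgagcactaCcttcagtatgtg
Bcl2a1b, chr9:89199360-89199419, plus strand: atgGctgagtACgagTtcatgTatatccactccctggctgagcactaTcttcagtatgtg
Bcl2a1d, chr9:88731660-88731719, minus strand: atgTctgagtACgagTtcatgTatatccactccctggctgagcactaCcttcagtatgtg

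The last 99 coding bases, nearer to the end that a 3' library reads, hold 1 such position, in capitals, and there Bcl2a1a and Bcl2a1d are the same.
Bcl2a1a, chr9:88962172-88962270, plus strand: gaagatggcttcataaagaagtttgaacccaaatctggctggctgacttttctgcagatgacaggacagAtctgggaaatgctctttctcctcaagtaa
Bcl2a1b, chr9:89207582-89207680, plus strand: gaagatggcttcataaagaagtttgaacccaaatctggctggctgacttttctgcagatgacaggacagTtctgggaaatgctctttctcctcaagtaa
Bcl2a1d, chr9:88723434-88723532, minus strand: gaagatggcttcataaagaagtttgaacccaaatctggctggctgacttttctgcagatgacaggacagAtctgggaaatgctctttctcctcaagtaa
Among the 411 stretches of 90 bases in the last 500 bases of each reference transcript, 248 (60.3%) of Bcl2a1a, 249 (60.6%) of Bcl2a1b and 143 (34.8%) of Bcl2a1d occurred in no other copy. The rest match another copy in full, and reads from them may not have been counted. The SM/J sequence of these copies was not analysed here, so a read from an SM/J allele could also be assigned to another copy. The levels of the 3 copies are therefore uncertain as shares of one another, and their differences between strains more so than their differences between ages within a strain.

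The bases upstream of the 3 copies are almost the same too, and they are printed because the copies shared 1 cell type of high level and differed in the others. RefSeq promoter windows on GRCm38.p6 gave the following 100 bases, with the string GAGGAAGT, which holds the GGAA core of ETS-factor motifs, in capitals.
Bcl2a1a, chr9:88956755-88956854, plus strand: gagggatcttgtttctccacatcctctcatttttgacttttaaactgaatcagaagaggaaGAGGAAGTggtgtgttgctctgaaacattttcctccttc
Bcl2a1b, chr9:89199064-89199163, plus strand: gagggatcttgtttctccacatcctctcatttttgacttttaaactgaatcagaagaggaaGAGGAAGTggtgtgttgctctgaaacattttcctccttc
Bcl2a1d, chr9:88731916-88732015, minus strand: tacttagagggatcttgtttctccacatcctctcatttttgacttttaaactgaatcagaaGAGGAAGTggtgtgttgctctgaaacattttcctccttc
The windows of Bcl2a1a and Bcl2a1b are identical base for base. The string was chosen after these sequences were seen. On either strand it occurred in 1052 of 32851 promoter windows of 300 bases (3.2%), and among the 10 genes in the windows of Bcl2a1a, Bcl2a1b, Bcl2a1d and Bak1. A match describes the letters only.

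The 4 libraries held 2580 to 3551 cell barcodes and 14250603 to 30627357 unique molecular identifiers (UMIs, each standing for 1 captured RNA molecule) on genes. After cells of low count, high mitochondrial share or called as doublets were left out, 11596 cells remained, with a median of 4060 UMIs per cell in BL/6 at 12 months, 4914 in BL/6 at 20 months, 4729 in SM/J at 12 months and 8837 in SM/J at 20 months. Libraries of different runs shared 1 to 3 barcodes and those of the same run shared 0. Clustering without the 10 genes and their pathway gave 25 clusters, of which 24 could be named from marker genes, always as cells that resemble a type. B, T, NK, classical monocyte, nonclassical monocyte and macrophage below mean such clusters. In these classes every marker of the class was detected in every library, except 1 of 8 NK markers in SM/J at 20 months. B cells with at least 5 UMIs of Zcwpw1 were kept apart as Zcwpw1-high B cells: they numbered 888 in SM/J at 20 months, 22 in SM/J at 12 months, 49 in BL/6 at 12 months and 7 in BL/6 at 20 months, and only the first group passed the minimum of 50 cells set for a comparison. Macrophages passed it only in SM/J at 20 months, with 398 cells against 30 to 38 in the other libraries. Levels are UMIs of a gene per 1000000 UMIs (CPM), summed over the cells of a class in a library. In 3' counts of UMIs the level does not scale with transcript length, but levels of different genes are still not set against each other here, because capture of each transcript differs.

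Every group was 1 library, so no test of age or strain was possible and no p-value is given. A gene is called higher or lower below when its log2 ratio of CPM + 1 passed 1.5-fold (0.585 on the log2 scale) with at least 100 UMIs in both groups together. Brackets hold exact 95% intervals that cover counting error only, and the range over the 3 aliquots is the spread within a library. Where another way of processing took the ratio of a member or of a named pathway gene under 1.5-fold, the ratio found that way is given with that comparison; CPM + 10 means that 10 in place of 1 was added before the log, which lowers the ratios of genes of low level. The comparisons of age and of strain use the same 4 libraries and are not independent of each other.

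Bcl2 (chr1:106538178-106714274, minus strand), the survival gene best known in mature lymphocytes, was highest in T cells or nonclassical monocytes and lowest in classical monocytes. In T cells it stood at 665 CPM in BL/6 at 12 months, 729 in BL/6 at 20 months, 757 in SM/J at 12 months and 644 in SM/J at 20 months. Nonclassical monocytes, the patrolling monocytes of blood, stood at 773, 469, 496 and 529 CPM in the same order. The order of these 2 classes was reversed in BL/6 at 12 months, where nonclassical monocytes were above T cells beyond the counting interval and the aliquot range; in the other 3 libraries T cells as a whole were above. The T cell level rested on the mix of clusters: at 20 months of BL/6 it was 1148 CPM in cluster 9, 807 in cluster 10, 487 in cluster 11 and 371 in cluster 13. Cluster 13, at 371, 331 and 333 CPM in those 3 libraries, was below nonclassical monocytes beyond counting error, and cluster 11 of BL/6 at 20 months overlapped them. NK cells held 457, 508.5, 452 and 484 CPM and overlapped nonclassical monocytes in all libraries except BL/6 at 12 months. B cells without high Zcwpw1 held 273, 247, 214 and 169 CPM, below T and NK cells in every library. Classical monocytes, the inflammatory monocytes, were at the bottom with 100.9, 38.7, 46.5 and 38.3 CPM, next to macrophages of SM/J at 20 months with 45.1 CPM, and these 2 overlapped.

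Among the B, T, NK, monocyte and macrophage classes, Bcl2a1a was seen almost solely in monocytes. Nonclassical monocytes held 79.1 CPM in BL/6 at 12 months, 43.7 in BL/6 at 20 months, 120.1 in SM/J at 12 months and 107 in SM/J at 20 months. Classical monocytes held 14.7, 3.42, 33.7 and 7.41 CPM, and macrophages of SM/J at 20 months 5.94. In B cells without high Zcwpw1 the gene had 4, 1, 0 and 1 UMIs over 1955, 944, 1260 and 724 cells. The share of nonclassical monocytes with a UMI was 34.2%, 22.9%, 48.9% and 41.3% in the 4 libraries, whereas no more than 0.205% of these B cells had one in any library, with an upper limit of the exact binomial interval of 0.767%. Median UMIs were 5428.5 to 6508 per nonclassical monocyte and 3423 to 5095.5 per B cell, and after thinning every cell to 2000 UMIs the shares were 13.9%, 8.23%, 21.5% and 17.1% in nonclassical monocytes and at most 0.14% in B cells. The monocyte share was above the B cell background at every depth examined.

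Bcl2a1d followed Bcl2a1a in its highest class and was also present at a low level elsewhere. It stood at 106, 79.4, 109 and 87.3 CPM in nonclassical monocytes and between 5.10 and 18.6 CPM in every other class compared, with no separation among most of those classes beyond counting error. Bcl2a1b was the copy with the broadest reach. Nonclassical monocytes held 256, 169, 147 and 115.6 CPM of it, NK cells 76.5, 42.7, 41.1 and 81.6, T cells 52.3, 30.7, 31.9 and 47.0, and B cells without high Zcwpw1 37.7, 26.8, 15.1 and 24.8. In SM/J at 20 months macrophages exceeded nonclassical monocytes, with 222 CPM against 115.6, beyond the counting interval and the aliquot range. Macrophages of the other 3 libraries held 122, 145 and 136 CPM in 30 to 38 cells each. Among classes of at least 50 cells, all 3 copies were highest in nonclassical monocytes of every library, except Bcl2a1b in SM/J at 20 months.

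Among T cells, Bcl2a1b depended on the cluster. In BL/6 at 12 months it stood at 84.5 CPM in cluster 10, led by Cxcr6, Itga1, Ccl5 and Gzmb, and at 8.80 CPM in cluster 11, led by Igfbp4, Dapl1, Lef1 and Tcf7. Cluster 13, led by Ikzf2, Icos and Cd4, was as high as cluster 10 within counting error, at 97.6 CPM. At 20 months the values were 115.8, 4.52 and 79.7 CPM. The intervals of clusters 10 and 13 overlapped each other and not that of cluster 11 at either age.

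Bcl2l1 (chr2:152780668-152831728, minus strand), which encodes BCL-XL, was low in B cells. B cells without high Zcwpw1 held 3.96, 2.68, 3.89 and 4.20 CPM, from 10 to 32 UMIs per library, and Zcwpw1-high B cells of SM/J at 20 months 2.36. NK cells held 34.6, 21.3, 64.6 and 40.8 CPM and T cells 29.8, 25.8, 19.7 and 17, and NK cells were above T cells beyond counting error in SM/J at 12 months alone. Macrophages of SM/J at 20 months were at 36.0 CPM and overlapped NK cells. The platelet-like cluster of BL/6, 150 and 173 particles with few UMIs each, stood above all of these with 185 CPM (36 UMIs, interval 129 to 256) at 12 months and 253 CPM (55 UMIs, interval 190.4 to 329) at 20 months. SM/J had 1 cell in that cluster at 12 months and 0 at 20 months. A further cluster of low depth, 18, whose closest class was also platelet with 5 of 6 markers detected, was left without a name and held 64 and 24 SM/J cells, so the absence of SM/J cells concerns that 1 cluster.

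Mcl1 (chr3:95658788-95663176, plus strand), whose short-lived product is needed by most leukocytes, had the reverse order to Bcl2 among monocytes. Classical monocytes led, with 560.2 CPM in BL/6 at 12 months, 647 in BL/6 at 20 months, 667 in SM/J at 12 months and 674 in SM/J at 20 months. Nonclassical monocytes held 512, 585, 479 and 479 CPM and were below classical monocytes beyond counting error and aliquot range in both SM/J libraries. In BL/6 the counting intervals were apart at 20 months, where the aliquots overlapped, and overlapped at 12 months, where the aliquots were apart. B cells without high Zcwpw1 held 299, 362, 406 and 406 CPM, T cells 192, 275, 253 and 324, and NK cells 186, 181, 252 and 219. The order from classical monocytes through nonclassical monocytes and B cells to T cells was the same in the 4 libraries, and T and NK cells overlapped in counting interval in all but BL/6 at 20 months. Macrophages of SM/J at 20 months were at 578 CPM and Zcwpw1-high B cells there at 632, which overlapped classical monocytes of the same library.

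**Figure D1:**
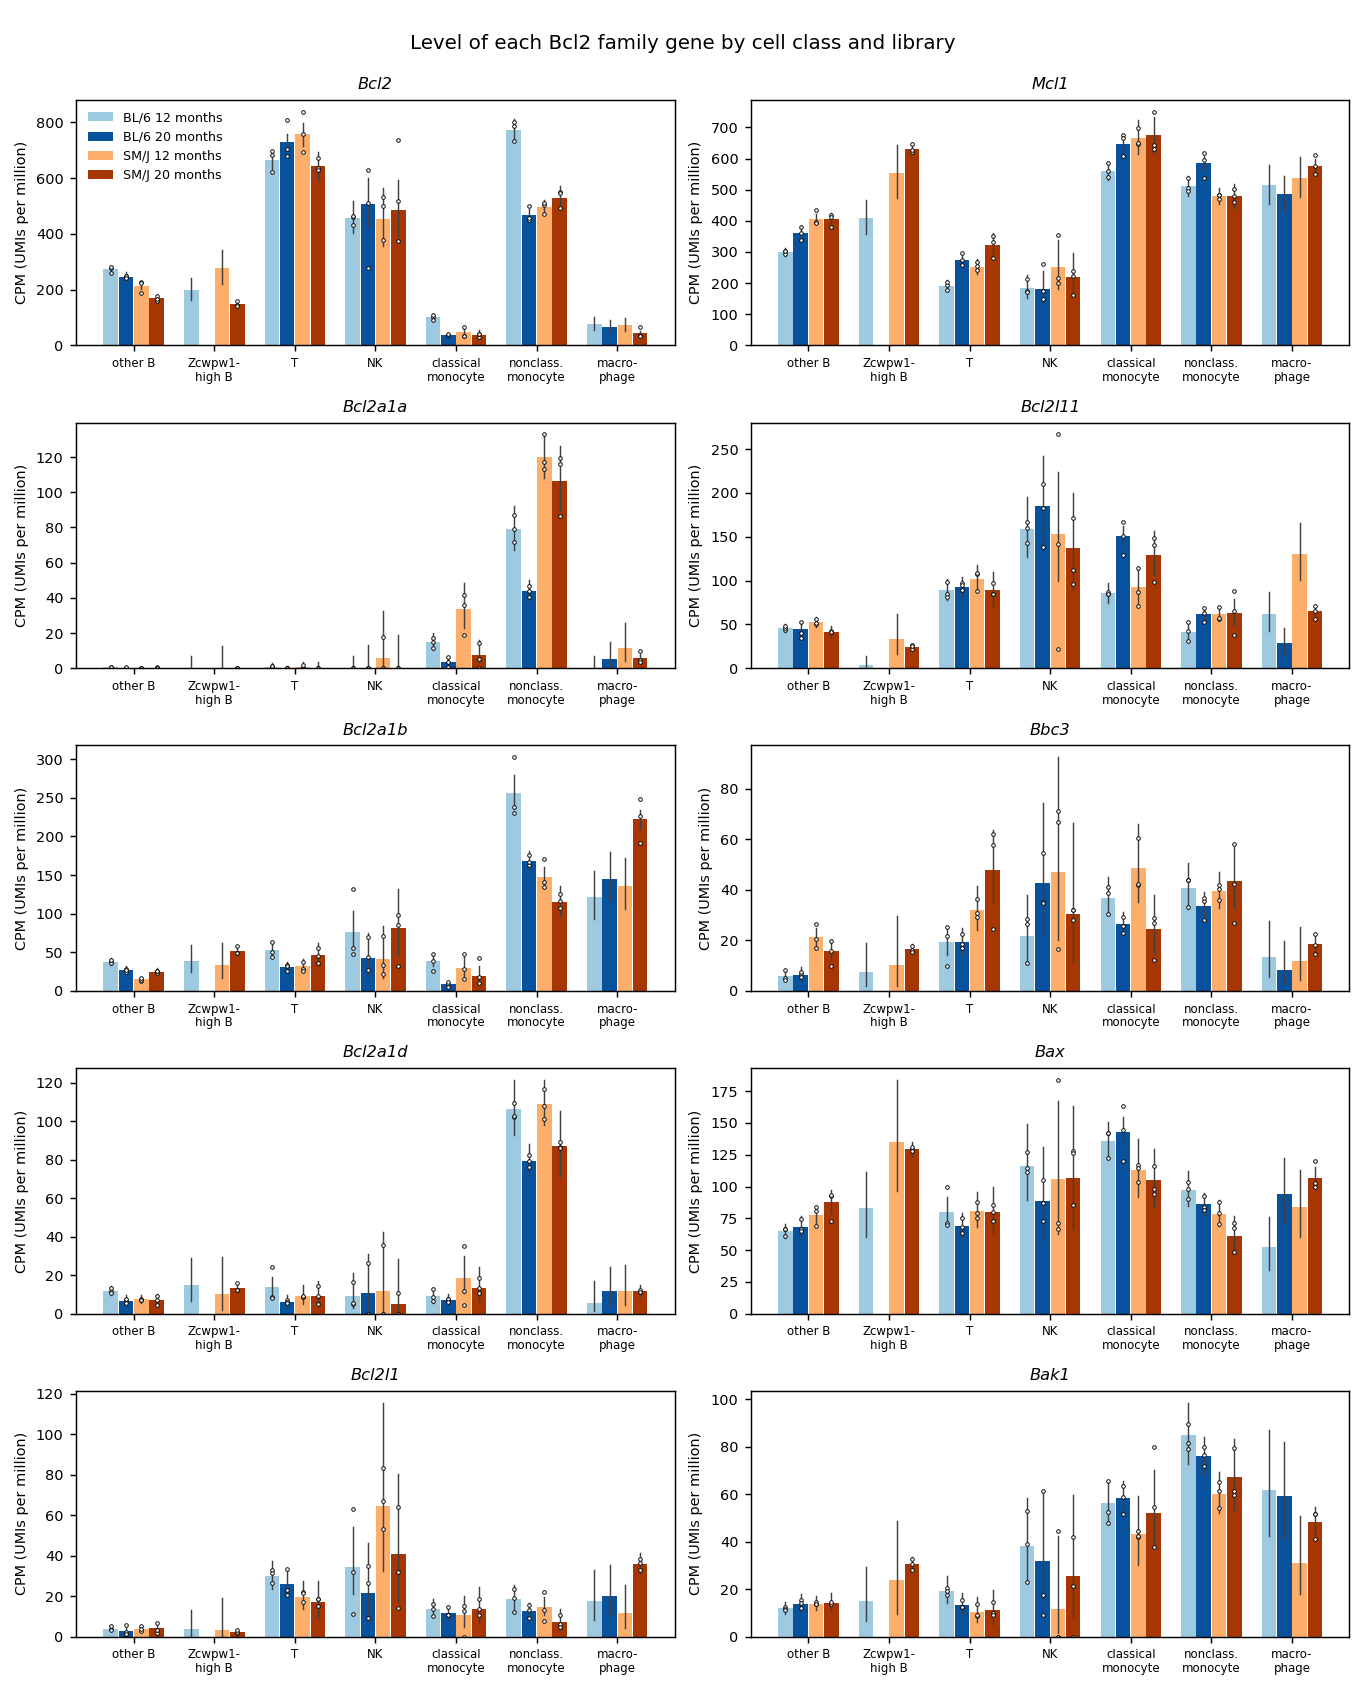
Level of each of the 10 genes (CPM, vertical axis starting at 0 and scaled for each gene) by cell class, with 1 bar per library, points for the 3 aliquots where a class had at least 50 cells and lines for the exact 95% Poisson interval, which covers counting error only. Bcl2a1a and Bcl2a1d stand out in nonclassical monocytes, Bcl2 is low in classical monocytes, and Mcl1 is highest in classical monocytes, between 560.2 and 674 CPM.

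Of the BH3-only genes, Bcl2l11 (chr2:128126038-128162547, plus strand), whose product BIM kills lymphocytes deprived of survival signals, was highest in NK cells, at 158, 185, 153 and 138 CPM. T cells held 89.0, 93.2, 102.0 and 89.0 CPM and classical monocytes 85.5, 151, 93.02 and 129.7. NK cells were above the next class beyond counting error in BL/6 at 12 months and overlapped it in the other 3 libraries. Nonclassical monocytes (40.8, 61.3, 61.8 and 63.05 CPM) and B cells without high Zcwpw1 (46.0, 44.2, 52.75 and 41.8 CPM) were low, and Zcwpw1-high B cells of SM/J at 20 months were lowest, at 24.6 CPM.

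Bbc3 (chr7:16308393-16318205, plus strand), a target of p53, differed in B cells by strain. B cells without high Zcwpw1 held 5.94 CPM in BL/6 at 12 months, 6.43 in BL/6 at 20 months, 21.2 in SM/J at 12 months and 15.9 in SM/J at 20 months. In BL/6 they were below all 4 other classes beyond counting error at both ages, and in SM/J their interval overlapped that of the next class. T cells held 19.3, 19.3, 31.9 and 48.0 CPM. Nonclassical monocytes held 40.8, 33.6, 39.6 and 43.65 CPM, classical monocytes 36.9, 26.3, 48.8 and 24.7, and NK cells 21.85, 42.7, 47.0 and 30.6, and these 3 classes overlapped one another in most libraries.

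The effectors differed from each other. Bax (chr7:45461697-45466898, minus strand) lay within a narrow range in the classes compared, between 61.4 and 143 CPM, with B cells without high Zcwpw1 at 64.8, 68.1, 77.6 and 87.8 CPM and classical monocytes at 136, 143, 113 and 105. Bak1 (chr17:27019810-27029009, minus strand) was highest in monocytes: nonclassical monocytes held 85.0, 75.9, 60.2 and 67.1 CPM and classical monocytes 56.1, 58.4, 43.0 and 51.9, against 10.4 to 19.3 CPM in T cells and 11.9 to 14.2 in B cells without high Zcwpw1. Nonclassical monocytes exceeded classical monocytes in Bak1 beyond counting error in both BL/6 libraries and overlapped them in both SM/J libraries. NK cells held 38.2, 32.0, 11.7 and 25.5 CPM of Bak1, from 2 to 21 UMIs. Their counting intervals overlapped those of classical monocytes in every library. Macrophages of SM/J at 20 months held 48.4 CPM of Bak1 and 107 of Bax.

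In BL/6, 8 of the 33 tested pairs of member and class were past 1.5-fold at 20 against 12 months, 1 higher and 7 lower, and 6 of the 8 were in monocytes. In classical monocytes 3 of 7 tested members passed, where 8.24% of all 6711 genes tested did. Bcl2a1b was at 38.8 CPM at 12 months (aliquots 25.6 to 48.3) and at 8.55 CPM at 20 months (aliquots 5.09 to 11.9), a log2 ratio of -2.06 [-2.57 to -1.56] that was -1.35 at a coarser clustering. Bcl2 was at 100.9 CPM and 38.7 CPM, with aliquots of 92.1 to 110.0 and 37.4 to 40.7 and a log2 ratio of -1.36 [-1.63 to -1.09]. Bcl2l11 went the other way, from 85.5 to 151 CPM, with aliquots of 84.3 to 87.0 and 129.6 to 167 and a log2 ratio of 0.81 [0.60 to 1.03]. None of the aliquots of the 2 ages overlapped for these 3 genes, and the members' median log2 ratio was 0.06 against 0.02 over all genes. The summed level of nonclassical monocyte markers in classical monocytes was 995 CPM at 12 months and 601 CPM at 20 months, and its part in these differences was not tested. Median depth was 8385.5 UMIs per cell at 12 months and 8249.5 at 20 months. When the 10 genes and their pathway were allowed into the clustering, the ratio of Bcl2 was -0.60.

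Nonclassical monocytes of BL/6 had 3 of 9 tested members past 1.5-fold, all lower at 20 months, where 8.29% of all genes tested were past it in either direction and 3.88% lower. Bcl2a1a was at 79.1 CPM (aliquots 71.8 to 86.9) and 43.7 CPM (40.7 to 46.5), a log2 ratio of -0.84 [-1.14 to -0.54]. Bcl2 was at 773 CPM (aliquots 732 to 803) and 469 CPM (448 to 499), a log2 ratio of -0.72 [-0.81 to -0.63]. Bcl2a1b was at 256 CPM (aliquots 230.5 to 302) and 169 CPM (163 to 176), a log2 ratio of -0.60 [-0.76 to -0.44], the weakest of the 3. It fell under 1.5-fold in 5 alternatives: -0.50 without aliquot 3 at 12 months, -0.58 without aliquot 1 at 20 months, -0.50 at a coarser clustering, -0.50 with the 10 genes and their pathway in the clustering and -0.58 with CPM + 10. The aliquots of the 2 ages stood apart for all 3 genes. The members' median log2 ratio was -0.27 against 0.03 over all genes, and the third A1 copy, Bcl2a1d, had a ratio of -0.42 and did not pass.

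In BL/6 lymphocytes fewer members passed. Bcl2a1d was 1 of 7 tested members past 1.5-fold in B cells without high Zcwpw1, where 3.88% of all genes were, with 12.0 CPM at 12 months (aliquots 10.98 to 13.3) and 6.70 CPM at 20 months (5.66 to 7.64), a log2 ratio of -0.76 [-1.35 to -0.18] that was -0.40 with CPM + 10. Bcl2a1b was 1 of 7 in T cells, where 7.64% of all genes were past it, with 52.3 CPM (aliquots 44.0 to 62.7) and 30.7 CPM (26.0 to 33.6), a log2 ratio of -0.75 [-1.14 to -0.37]. With the T cell clusters weighted alike at both ages that ratio was -0.004: cluster 10, 1 of the 2 in which the gene is high, held 168 and 52 cells, and cluster 11, in which it is low, held 89 and 222. The summed level of NK markers in T cells was 883 CPM at 12 months and 282 CPM at 20 months. In NK cells 0 of 3 tested members passed, where 10.4% of all genes did. Mcl1 was at 299 and 362 CPM in B cells and at 192 and 275 CPM in T cells, log2 ratios of 0.27 and 0.52 that were under 1.5-fold. TMM scaling moved all log2 ratios of this T cell comparison by 0.087, which took that of Mcl1 past 1.5-fold.

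In SM/J, 1 of 26 tested pairs of member and class was past 1.5-fold between the ages. It was Bcl2a1b in B cells without high Zcwpw1, at 15.1 CPM at 12 months (aliquots 13.1 to 16.98) and 24.75 CPM at 20 months (23.2 to 25.4), a log2 ratio of 0.68 [0.29 to 1.07] that was 0.47 with CPM + 10, where 6.27% of all genes tested were past it. The same gene in the same class of BL/6 was at 37.7 and 26.8 CPM, a log2 ratio of -0.48. The count was 0 of 6 tested members in T cells (4.63% of all genes), 0 of 1 in NK cells (7.56%), 0 of 3 in classical monocytes (9.97%) and 0 of 9 in nonclassical monocytes (5.21%). The 3 values named next were under 1.5-fold: Bbc3 in T cells was at 31.9 and 48.0 CPM (0.58), Bcl2a1b in T cells at 31.9 and 47.0 CPM (0.55), and Bcl2 in B cells at 214 and 169 CPM (-0.35). The first 2 lay near the threshold. The count of members past it in SM/J was 2 at a finer clustering and with the 10 genes and their pathway in the clustering. Bcl2 in nonclassical monocytes of SM/J was at 496 and 529 CPM, and whether the age ratios of the strains differ was not tested.

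**Figure D2:**
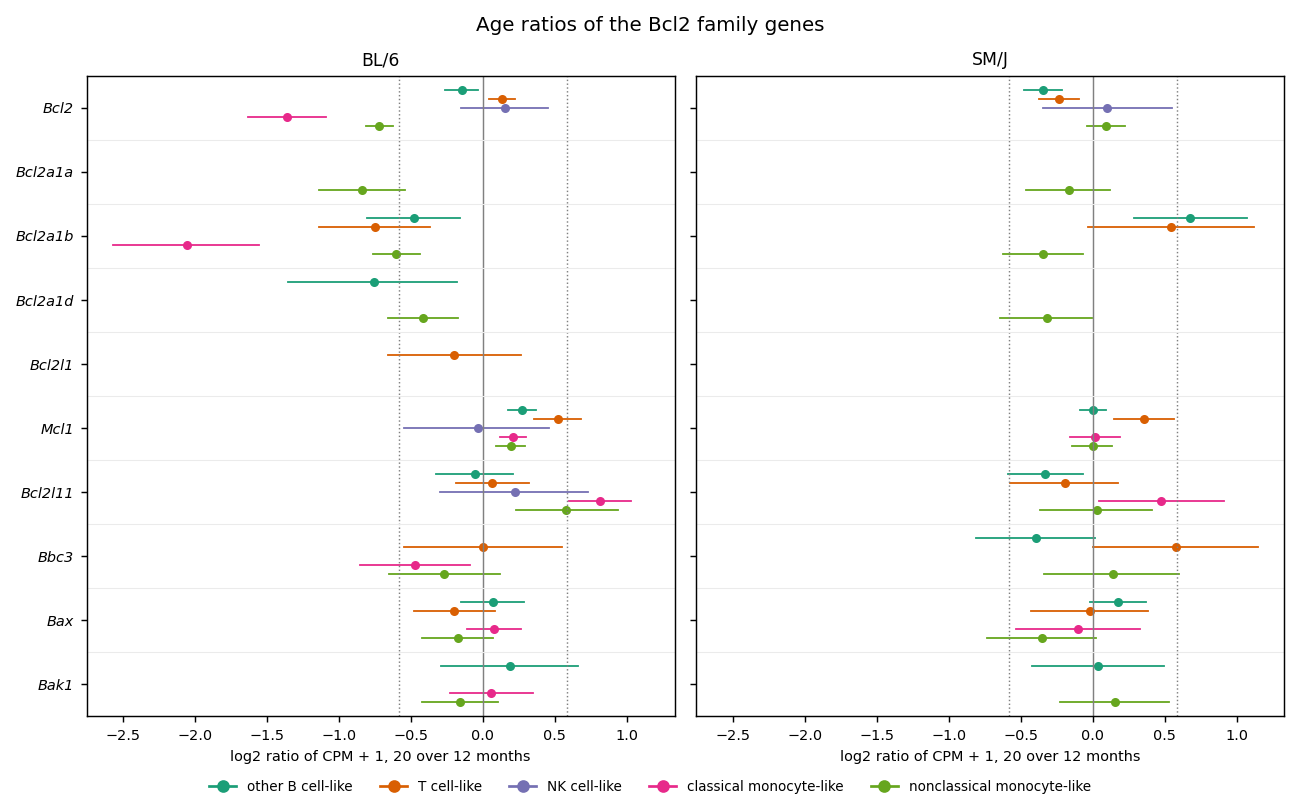
Log2 ratio of CPM + 1 at 20 over 12 months (horizontal axis) for each tested member and cell class in BL/6 and SM/J; points are the libraries' ratios, lines are exact 95% intervals for counting error only, and dotted lines mark 1.5-fold. In monocytes of BL/6 the points of Bcl2, Bcl2a1a and Bcl2a1b that were past 1.5-fold lie at -0.60 or lower, and in SM/J the single point past it is Bcl2a1b in B cells at 0.68.

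Between strains, the named classes were filled mostly by different clusters: B cells without high Zcwpw1 of BL/6 mostly by cluster 0, led by Fcer2a and Cr2 (1423 of 1955 cells at 12 months, 603 of 944 at 20 months), with most of the rest in clusters 1 and 2, and those of SM/J mostly by clusters 3 and 14, with 75 cells of cluster 1 at 12 months; classical monocytes by clusters 5 and 23; nonclassical monocytes by clusters 6 and 22. T cells came from the same 4 clusters in both strains but in other shares: cluster 10 held 168 of 442 T cells of BL/6 and 25 of 360 of SM/J at 12 months, and cluster 13 held 134 of 530 and 95 of 229 at 20 months. At 12 months 10 of 34 tested pairs of member and class were past 1.5-fold, 4 higher and 6 lower in SM/J, and with TMM scaling of the class sums 8 were, 2 higher and 6 lower. At 20 months 3 of 28 were, all higher in SM/J, and with TMM scaling 4 were, 2 higher and 2 lower. The shares of all genes past 1.5-fold were larger than between ages, as given beside each count.

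Bbc3 was higher in SM/J in B cells at 12 months and in T cells at both ages. In B cells without high Zcwpw1 at 12 months, where 3 of 8 tested members and 25% of all genes were past 1.5-fold and the members' median was 0.20 against -0.11 over all genes, it was at 21.2 CPM in SM/J (aliquots 16.98 to 26.6) and 5.94 CPM in BL/6 (4.31 to 8.27), a log2 ratio of 1.68 [1.24 to 2.11]. Within SM/J the level differed between clusters: Bbc3 was at 30.2 CPM in cluster 14 of SM/J at 12 months, at 4.36 CPM in cluster 3 of the same library and at 4.14 CPM in cluster 0 and 12.4 CPM in cluster 2 of BL/6. At 20 months cluster 14 of SM/J (17.4 CPM) and cluster 2 of BL/6 (10.7 CPM) overlapped in counting interval. With CPM + 10 the ratio at 12 months was 0.97. Cells of cluster 14 had a median of 7184 UMIs and those of cluster 3 a median of 2970.0, and the part of depth was not tested. In T cells Bbc3 was past 1.5-fold at both ages, with log2 ratios of 0.69 [0.13 to 1.26] at 12 months, which was 0.51 with CPM + 10, and 1.27 [0.71 to 1.83] at 20 months. The SM/J aliquots were at 29.1 to 36.5 CPM and 24.4 to 62.2 CPM, the BL/6 aliquots at 10.1 to 25.4 and 17.05 to 22.4, and the strains did not overlap at either age. At 12 months SM/J and BL/6 held 38.0 and 33.2 CPM in cluster 9, 32.0 and 22.0 in cluster 11 and 23.1 and 6.81 in cluster 13, and the intervals overlapped in each of these 3 pairs. Cluster 10, with 168 cells in BL/6 and under 50 in SM/J, was at 11.2 CPM in BL/6. At 20 months 34 of the SM/J UMIs came from the 55 cells of cluster 9, led by Gzmm and Cd8b1 (100.9 CPM, against 29.4 in BL/6), and the intervals of that cluster were apart. Those of cluster 11 (4.78 against 9.95 CPM) and cluster 13 (33.3 against 18.65 CPM) overlapped. In NK cells Bbc3 had too few UMIs to be tested, with 47.0 CPM in SM/J against 21.85 in BL/6 at 12 months and 30.6 against 42.7 at 20 months. In T cells 2 of 7 members passed at 12 months, where 19% of all genes did, and 2 of 6 at 20 months, where 13.8% did. At 20 months Bbc3 in B cells had under 100 UMIs in both strains together and was not tested, and 0 of 6 tested members passed there, where 29.9% of all genes did.

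The A1 copies differed in direction between strains and classes. Bcl2a1a was higher in nonclassical monocytes of SM/J, at 120.1 CPM (aliquots 113 to 133) against 79.1 (71.8 to 86.9) at 12 months, a log2 ratio of 0.60 [0.33 to 0.87], and at 107 CPM (86.3 to 119) against 43.7 (40.7 to 46.5) at 20 months, a log2 ratio of 1.27 [0.95 to 1.59]. The smaller ratio fell to 0.52 without aliquot 1 of BL/6 at 12 months, to 0.53 without aliquot 1 of SM/J at 12 months, to 0.46 with TMM scaling, to 0.55 with CPM + 10 and to 0.56 with called doublets kept. Bcl2a1b was lower there in SM/J at 12 months, at 147 CPM (aliquots 134 to 170.1) against 256 (230.5 to 302), a log2 ratio of -0.80 [-0.98 to -0.62]. The 2 copies therefore lay on opposite sides at 12 months, and how reads were shared between them is the limit given with their sequences. Bcl2a1b was also lower in SM/J at 12 months in B cells, with a log2 ratio of -1.27 [-1.59 to -0.95], and in T cells, with -0.70 [-1.17 to -0.24]. In T cells at 20 months it was higher in SM/J, 0.60 [0.07 to 1.11], and this ratio was 0.43 without aliquot 2 of SM/J, 0.50 without aliquot 2 of BL/6, 0.52 with TMM scaling, 0.485 with CPM + 10 and 0.57 with a marker gate per cell. The T cell ratio at 12 months was -0.55 without aliquot 3 of BL/6, -0.57 without aliquot 2 of SM/J, -0.57 with CPM + 10 and -0.57 with the marker gate. The class ratio was not found in each cluster of T cells. At 12 months SM/J and BL/6 held 107.6 and 97.6 CPM in cluster 13, 14.4 and 8.80 CPM in cluster 11 and 10.8 and 19.15 CPM in cluster 9. At 20 months they held 57.55 and 79.7, 14.3 and 4.52, and 11.9 and 9.20 CPM in the same clusters. The intervals of the strains overlapped in each of these 6 pairs, and cluster 10 had under 50 cells in SM/J. Bcl2a1d in B cells at 12 months was lower in SM/J, -0.62 [-1.09 to -0.16], but under 1.5-fold in 4 alternatives: -0.33 with CPM + 10, -0.56 with TMM scaling, -0.58 with called doublets kept and -0.55 without aliquot 2 of BL/6.

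Bcl2 was lower in SM/J monocytes at 12 months. In nonclassical monocytes, where 4 of 9 members and 16.9% of all genes were past 1.5-fold, it was at 496 CPM (aliquots 473 to 509) against 773 (732 to 803), a log2 ratio of -0.64 [-0.74 to -0.54]. That ratio was -0.55 at a coarser clustering, -0.57 with at most 5% mitochondrial UMIs and -0.55 with the 10 genes and their pathway in the clustering. In classical monocytes, where 1 of 7 members and 18% of all genes were, it was at 46.5 CPM (aliquots 33.0 to 65.95) against 100.9, a log2 ratio of -1.10 [-1.61 to -0.63]. That value depended on which cells were called classical monocytes: it was 0.11 at a coarser clustering, -0.08 with the 10 genes and their pathway in the clustering and -0.44 with called doublets kept. Bcl2l11 in nonclassical monocytes was higher in SM/J at 12 months, at 61.8 CPM (aliquots 56.3 to 70.2) against 40.8 (31.5 to 52.15), a log2 ratio of 0.59 [0.22 to 0.97] that lay at the threshold. It was 0.40 without aliquot 1 of BL/6, 0.47 without aliquot 2 of SM/J, 0.45 with TMM scaling, 0.47 at a coarser clustering, 0.46 with the 10 genes and their pathway in the clustering and 0.50 with CPM + 10. Nonclassical monocytes of SM/J carried more B cell transcripts: the summed level of B cell markers was 1783 and 827 CPM at 12 and 20 months against 264 and 237 CPM in BL/6. Without cluster 17, which held 39 and 13 of the SM/J cells, the ratio of Bcl2 was -0.56 and that of Bcl2l11 0.57, both under 1.5-fold. At 20 months 1 of 9 members passed in nonclassical monocytes, the Bcl2a1a value above, where 14% of all genes did, and 0 of 6 in classical monocytes, where 18.3% did. In NK cells 0 of 3 passed at 12 months (19.4% of all genes) and 0 of 1 at 20 months (22.1%).

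**Figure D3:**
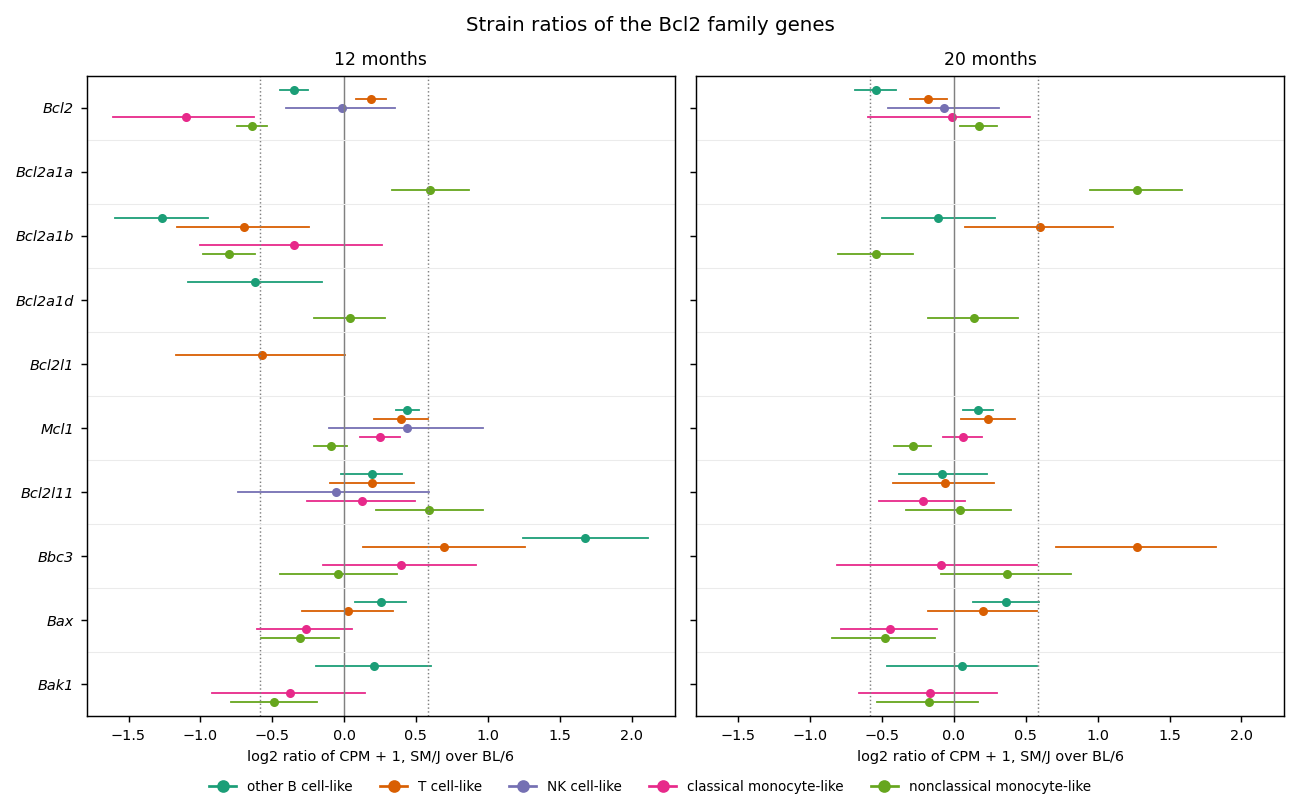
Log2 ratio of CPM + 1 in SM/J over BL/6 (horizontal axis) for each tested member and cell class at 12 and 20 months; points are the libraries' ratios, lines are exact 95% intervals for counting error only, and dotted lines mark 1.5-fold. Bbc3 lies at 1.68 in B cells at 12 months and at 1.27 in T cells at 20 months, and Bcl2a1a in nonclassical monocytes at 0.60 and 1.27.

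The Zcwpw1-high B cells of SM/J at 20 months were set against the other B cells of the same library, 888 against 724 cells. Zcwpw1, which encodes a histone-methylation reader known from meiosis, chose the cells and its level of 1572 CPM against 36.9 is no result. Of these cells 816 were in cluster 24, led by Gnb3 and Zcwpw1, and all 68 cells of the dividing cluster 19 of this library were among them. Their median depth was 12995 UMIs per cell against 5095.5, a difference that moves with every value below. The summed level of B cell markers was 13484 CPM against 10997, and that of T cell markers 10.2 against 30.35. Of the 8 members tested, 5 were past 1.5-fold, 4 higher and 1 lower, where 31.6% of all 9014 genes tested were, 15.5% higher and 16.1% lower. With TMM scaling, which moved all log2 ratios of this comparison by 0.20, 5 were past it, all higher. The members' median log2 ratio was 0.60 against -0.025 over all genes. Bcl2a1a, with 1 UMI in each group, and Bcl2l1, at 2.36 against 4.20 CPM, had too few UMIs to be tested.

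Among the survival genes, Mcl1 was at 632 CPM in Zcwpw1-high B cells (aliquots 621 to 648) and 406 CPM in the other B cells (379 to 419), a log2 ratio of 0.64 [0.56 to 0.71] that was 0.54 when at least 10 UMIs of Zcwpw1 were required. Bcl2a1b was at 52.0 CPM (48.5 to 58.1) against 24.75 (23.2 to 25.4), a log2 ratio of 1.04 [0.76 to 1.34], and 0.55 [0.07 to 1.05] with at most 5% mitochondrial UMIs. Bcl2a1d was at 13.6 CPM (12.3 to 16.1) against 7.24 (4.47 to 9.28), a log2 ratio of 0.82 [0.33 to 1.34], and 0.45 with CPM + 10. No aliquots of the 2 groups overlapped for these 3 genes. Bcl2 was at 149 CPM against 169, a log2 ratio of -0.18 [-0.30 to -0.06] that was 0.02 with TMM scaling and 0.19 [-0.05 to 0.43] with at most 5% mitochondrial UMIs.

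Among the death genes, Bak1 was at 30.5 CPM (aliquots 28.1 to 32.8) against 14.2 (13.9 to 14.6), a log2 ratio of 1.05 [0.68 to 1.43]. Bax was at 129 CPM against 87.8, with a log2 ratio of 0.56, just under 1.5-fold. It was past it at 0.76 with TMM scaling, 0.65 with at most 5% mitochondrial UMIs and 0.70 at 3 or more UMIs of Zcwpw1. It was also past it at 0.74 against cluster 3 alone and 0.65 against cluster 14 alone. With 10 or more UMIs of Zcwpw1 it was 0.46, and with CPM + 10 it was 0.51. Bcl2l11 was the one member past 1.5-fold in the lower direction, at 24.6 CPM (22.2 to 26.5) against 41.8 (41.1 to 42.3), a log2 ratio of -0.74 [-0.99 to -0.48], and -0.54 with TMM scaling, -0.51 with at most 5% mitochondrial UMIs and -0.58 with CPM + 10. Bbc3 was at 16.45 against 15.9 CPM, a log2 ratio of 0.05 [-0.32 to 0.43]. Both directions thus occurred among the death genes. The survival genes past 1.5-fold, Mcl1 and the A1 copies Bcl2a1b and Bcl2a1d, were all higher, and Bcl2 was not past it. The counts of the A1 copies carry the limit given with their sequences, so they are not separate cases.

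The other B cells of this library were a mixture, and the ratios depended on its parts. Against the 256 cells of cluster 3, led by Cpne4, Rab30 and Ighd, the log2 ratio was 1.19 for Mcl1, 2.22 for Bak1, 0.53 for Bcl2a1b, 0.09 for Bcl2a1d and -1.88 for Bcl2l11. Against cluster 14, led by Lmo7, Fras1 and Zbtb32, it was 0.565 for Mcl1, 0.96 for Bak1, 1.245 for Bcl2a1b, 1.11 for Bcl2a1d and -0.12 for Bcl2l11. Mcl1 itself was at 276 CPM in cluster 3, 429 in cluster 14, 653 in cluster 24 and 536 in cluster 19 of this library, and Bcl2l11 at 93.2, 26.4, 25.5 and 20.1. The lower Bcl2l11 of Zcwpw1-high B cells was thus a difference from cluster 3 and not, beyond counting error, from cluster 14.

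Because depth differed, the groups were also redrawn with the Zcwpw1 counts of the B cells thinned to a depth of 2000 UMIs per cell. Cells under 2000 UMIs were left out, and 2 UMIs of Zcwpw1 set the threshold, which gave 698 against 898 cells. The members' UMIs were not thinned, and median depth was still 12634.5 against 6595.5 UMIs, so depth was not made equal. Then 0 of the members were past 1.5-fold: the log2 ratio was 0.37 for Mcl1, 0.42 for Bak1, 0.14 for Bcl2a1b, 0.25 for Bcl2a1d and -0.43 for Bcl2l11. The redrawn group of other B cells held 195 cells (21.7% of it) with at least 5 UMIs of Zcwpw1 before thinning, so the groups were mixed by the thinning itself. The signs were those found without thinning, but the intervals of Bcl2a1b [-0.06 to 0.33] and Bcl2a1d [-0.11 to 0.62] included 0.

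Levels across bins of Zcwpw1 UMIs give the cells just outside and just inside the threshold. Cells with 1 to 4 UMIs of Zcwpw1 (87 cells, median depth 7447 UMIs) held 513 CPM of Mcl1, 23.5 of Bcl2a1b, 18.0 of Bak1 and 29.0 of Bcl2l11. Cells with 5 to 9 (103 cells, median depth 9829 UMIs) held 564 CPM of Mcl1, 61.3 of Bcl2a1b, 19.2 of Bak1 and 36.4 of Bcl2l11. Mcl1 was at 385 CPM in the 637 cells without a Zcwpw1 UMI and 659.7 CPM in the 465 cells with at least 20, with bins of rising median depth from 4874 to 15083 UMIs. Bax was already at 120.3 CPM at 1 to 4 UMIs, against 81.2 without one and 132 in the top bin, so its step lay outside the threshold, and that of Bcl2a1b lay at it.

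**Figure D4:**
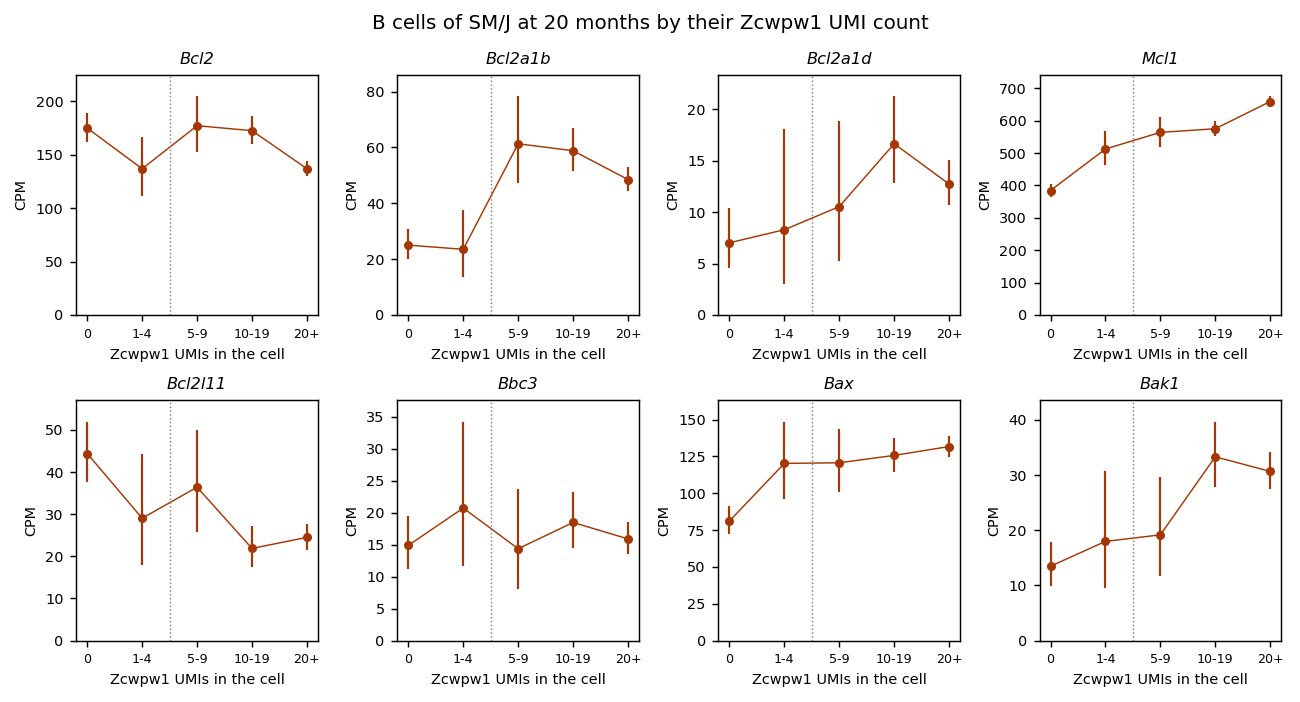
Level of the 8 tested members (CPM, vertical axis from 0) in B cells of SM/J at 20 months by number of Zcwpw1 UMIs per cell (0, 1 to 4, 5 to 9, 10 to 19, and 20 or more; 637, 87, 103, 320 and 465 cells), with exact 95% Poisson intervals and a dotted line at the threshold of 5 UMIs. Mcl1 rises from 385 to 659.7 CPM over the bins while Bcl2l11 goes from 44.4 to 24.5 CPM; median depth per cell also rises over the bins.

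The remaining members of the family and its pathway were read from 3 lists: 15 further family members, 16 genes of the apoptosome, caspases and their inhibitors, and 24 regulators of the family. Over the 5 classes in BL/6, 5 of 20 tested pairs of further family member and class were past 1.5-fold at 20 against 12 months, all lower, together with 2 of 56 pairs of the caspase list (1 higher) and 5 of 88 of the regulators (4 higher). In SM/J the counts were 2 of 12, both lower, 1 of 40, lower, and 8 of 69, of which 2 were higher. Over all genes 3.88% to 10.4% passed in these classes of BL/6 and 4.63% to 9.97% in those of SM/J. All 8 regulator values past it in SM/J were in monocytes, 5 of 20 tested in nonclassical (background 5.21%) and 3 of 13 in classical monocytes (9.97%), against 0 of 21 in B and 0 of 15 in T cells. Pmaip1, which encodes the BH3-only protein NOXA that binds MCL1 and A1, made up 4 of the 5 in BL/6 and both in SM/J. In B cells without high Zcwpw1 it was at 85.1 and 34.3 CPM at 12 and 20 months of BL/6, a log2 ratio of -1.29 [-1.56 to -1.02], and at 135 and 78.7 CPM in SM/J, a log2 ratio of -0.77 [-0.96 to -0.59]. In nonclassical monocytes of BL/6 it was at 139.8 and 69.3 CPM (-1.003), in classical monocytes at 91.5 and 53.9 CPM (-0.75) and in T cells at 27.8 and 17.3 CPM (-0.65), and in classical monocytes of SM/J at 145 and 63.0 CPM (-1.19). The aliquots of the 2 ages did not overlap in any of these 6 pairs. Of the 6, the T cell ratio was -0.32 with the clusters weighted alike at both ages, -0.57 with TMM scaling, -0.47 with CPM + 10 and -0.45 without aliquot 3 at 20 months, and that of classical monocytes of BL/6 was -0.53 at a coarser clustering; the other 4 stayed past 1.5-fold in each alternative run. The median log2 ratio of the further family members in these B cells was -0.17 in BL/6, against 0.04 over all genes, and -0.12 in SM/J, against -0.02. The fifth in BL/6 was Bmf, another BH3-only gene, in classical monocytes (22.2 and 11.8 CPM, -0.86, and -0.57 with CPM + 10).

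The other age differences in SM/J were in monocytes. In nonclassical monocytes, at 12 and 20 months, the co-stimulatory receptor Cd40 was at 31.9 and 12.9 CPM (-1.24), Traf1, an adaptor of TNF receptors, at 76.65 and 40.4 CPM (-0.91), Trp53, which encodes p53, at 39.0 and 22.6 CPM (-0.76), and Nfkbia, the inhibitor of NF-kappaB, at 393 and 255 CPM (-0.62), all lower, while Rela, an NF-kappaB subunit, was higher at 51.5 and 79.2 CPM (0.61). Cd40, Traf1 and Trp53 stayed past 1.5-fold in each alternative run. Nfkbia was -0.56 without aliquot 3 at 12 months and -0.51 and -0.52 without aliquot 2 or 3 at 20 months. Rela was 0.47 without aliquot 2 at 12 months, 0.39 without aliquot 2 at 20 months, 0.54 with CPM + 10 and 0.56 with called doublets kept. The summed level of B cell markers in this class was 1783 CPM at 12 months and 827 CPM at 20 months and that of erythroid markers 2258 and 80.8 CPM. Without cluster 17 the ratios were -1.20 for Cd40, -1.035 for Traf1, -0.81 for Trp53, -0.62 for Nfkbia and 0.64 for Rela. In classical monocytes the NF-kappaB subunit Rel was lower (524 and 278 CPM, -0.91), as were Traf3 (231 and 139.6 CPM, -0.725) and Apaf1, the scaffold of the apoptosome (-1.04, to 48.2 CPM), and Mdm2, which encodes the ligase that degrades p53, was higher (113 and 178 CPM, 0.65). Mdm2 was 0.42 at a coarser clustering, 0.52 with called doublets kept and 0.54 without aliquot 1 at 20 months.

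In BL/6, Nfkbia was higher at 20 months in T cells (204 and 329.8 CPM, 0.69, and 0.58 without aliquot 1 at 12 months) and NK cells (182 and 516 CPM, 1.496), and Nfkb1 was higher in NK cells (0.74, but 0.56 without aliquot 2 at 12 months and 0.51 without aliquot 3 at 20 months). Apaf1 was lower in T cells (39.1 and 19.3 CPM, -0.98). With the T cell clusters weighted alike at both ages, the ratio of Nfkbia was 0.73 and that of Apaf1 -0.59, just past the threshold. In nonclassical monocytes Cdkn1a, the p53 target p21, was higher (68.9 and 119 CPM, 0.78) and Traf1 lower (76.2 and 48.4 CPM, -0.64). The Traf1 ratio was -0.555 at a coarser clustering, -0.555 with the 10 genes and their pathway in the clustering, -0.56 with CPM + 10 and -0.47 without aliquot 3 at 12 months.

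Between strains, 3 of 17 tested pairs of further family member and class were past 1.5-fold at 12 months, all higher in SM/J, and 7 of 17 at 20 months, 4 higher and 3 lower. All 3 at 12 months were Pmaip1, with log2 ratios of 0.66 in B cells without high Zcwpw1, 0.66 in classical monocytes and 0.97 in nonclassical monocytes. The first was 0.20 with at most 5% mitochondrial UMIs, and the second 0.50 with TMM scaling and 0.56 and 0.54 without aliquot 2 or 3 of SM/J. At 20 months it stood at 78.7 CPM in SM/J B cells against 34.3 in BL/6 (1.17 [0.88 to 1.47]) and at 245 CPM against 69.3 in nonclassical monocytes (1.81 [1.58 to 2.04]). Bid, which links caspase-8 to the mitochondrion, was higher in SM/J B cells at 20 months (29.2 against 12.9 CPM, 1.12) and lower in SM/J classical monocytes at that age (22.2 against 37.85 CPM, -0.74, and -0.57 with CPM + 10). The other 2 lower values were Bcl2l13 in B cells (-0.69, but -0.55 with a marker gate per cell, -0.58 with TMM scaling and -0.51 with CPM + 10) and Bmf in nonclassical monocytes (-0.67, but -0.48 with CPM + 10, -0.55 without aliquot 1 of BL/6 and -0.51 without aliquot 1 of SM/J). In nonclassical monocytes the list's median was 0.34 at 12 months and 0.39 at 20 months, against 0.09 and 0.04 over all genes. For the caspase list the counts were 6 of 49 (3 higher) and 8 of 46 (2 higher), and for the regulators 19 of 84 (11 higher) and 13 of 80 (4 higher). Among regulators of B cells, Foxo1 (172 against 275.6 CPM at 12 months, 144.5 against 330.1 at 20 months) and Nfkb2 (23.0 against 49.25, 20.3 against 47.7) were lower in SM/J B cells at both ages, as was Stat5b. Of these, Foxo1 at 12 months was -0.49 with at most 5% mitochondrial UMIs, and the others stayed past 1.5-fold in each alternative run. Other classes differed. Foxo1 was higher in SM/J classical monocytes at 20 months (71.6 against 38.3 CPM, 0.89). Its ratios of 0.60 in classical monocytes at 12 months and 0.59 in nonclassical monocytes at both ages lay at the threshold and fell under it in several alternatives, to 0.45, 0.45 and 0.49 with TMM scaling and to as little as 0.42, 0.28 and 0.49. Nfkb2 was higher in SM/J classical monocytes at 12 months (68.6 against 37.3 CPM), and its lower value in SM/J T cells at 20 months (-0.60) was -0.43 with CPM + 10 and -0.50 with called doublets kept. These lists hold few genes per class, and their shares past 1.5-fold lie beside backgrounds of 13.8% to 29.9% in the strain comparisons.

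In Zcwpw1-high against other B cells of SM/J at 20 months, 2 of 6 further family members, 6 of 16 genes of the caspase list and 9 of 23 regulators were past 1.5-fold, 7 higher and 10 lower in all, and with TMM scaling 12 were, 7 higher and 5 lower. The share of all genes past it was 31.6%, as above. With the groups redrawn by thinned Zcwpw1 counts, as above, 6 were past it, 0 higher and 6 lower, so no higher value named next passed there. The pathway counts themselves were not thinned, and those groups were mixed. The median log2 ratio was -0.11 for the further family members, 0.10 for the caspase list and -0.32 for the regulators, beside -0.025 over all genes. Bad, a BH3-only gene, was higher (32.1 against 16.8 CPM, 0.895 [0.55 to 1.25]) and Pmaip1 lower (48.8 against 78.7 CPM, -0.68 [-0.86 to -0.49]). The Pmaip1 ratio fell under 1.5-fold in 6 alternatives: -0.48 with TMM scaling, -0.30 with at most 5% mitochondrial UMIs, -0.43 with the redrawn groups, -0.43 without aliquot 2, -0.49 against cluster 3 alone and -0.55 without the dividing cells. Nfkb1 (90.8 against 221 CPM, -1.28), Relb (40.6 against 73.3 CPM, -0.84), Cd40 (11.6 against 35.95 CPM, -1.55) and Birc3 (99.7 against 215.0 CPM, -1.10) were lower, while Tnfrsf13c, the receptor for the B cell survival factor BAFF, was higher (124.6 against 75.4 CPM, 0.72). Birc5, which encodes survivin and is a gene of dividing cells, was at 30.4 against 1.40 CPM, and it was among the genes that lead the dividing cluster 19. Of the 9 regulators past 1.5-fold, 7 were lower (Cd40, Nfkb1, Relb, Usp9x, Foxo3, Stat5b and Huwe1) and 2 higher (Tnfrsf13c and Traf1). Over the 3 lists 5 of the 17 stayed past 1.5-fold in each alternative run, which were Birc3, Nfkb1, Relb, Cd40 and Usp9x. With TMM scaling Foxo3 was -0.50, Stat5b -0.45 and Huwe1 -0.41, and Tnfrsf13c was 0.58 at 10 or more UMIs of Zcwpw1 and 0.03 against cluster 3 alone; Traf1 was 0.57 with CPM + 10 and 0.55 without aliquot 1.

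Genes whose level followed a member's most closely were ranked by Pearson's r over 26 sums of class and library, among 6163 genes with a mean of at least 20 CPM. The sums share libraries and cell classes, so r is a description with no test. The closest gene was Cblb for Bcl2 (r = 0.916), Pparg for Bcl2a1a (0.958), Txnrd1 for Bcl2a1b (0.895), Slc12a2 for Bcl2a1d (0.907), Hk1 for Bcl2l1 (0.848), Fos for Mcl1 (0.963), Dnajc15 for Bcl2l11 (0.965), Rap2a for Bbc3 (0.774), Psma4 for Bax (0.983) and Man1c1 for Bak1 (0.934). Bcl2a1d was second for Bcl2a1b (0.838), the one case of a member among another member's 3 closest genes. Bcl2a1a, with a mean of 17.09 CPM, was under the minimum of 20 CPM and could not be listed for another gene. Ear2, an eosinophil-type ribonuclease, was second for Bcl2a1a (0.943).

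Fos, the immediate-early gene closest to Mcl1, can rise when cells are handled, and its values are given beside those of Mcl1 for that reason. It was at 1081 to 1336 CPM in classical monocytes, 475 to 676 in nonclassical monocytes, 181, 220.0, 239 and 320.05 CPM in B cells without high Zcwpw1 and 469 CPM in Zcwpw1-high B cells. Its log2 ratio between these B cells of SM/J at 20 months was 0.55 [0.47 to 0.63], next to 0.64 for Mcl1. In T cells it was at 215 and 257 CPM in BL/6 and 140 and 253 CPM in SM/J at 12 and 20 months, where Mcl1 was at 192, 275, 253 and 324. The part of handling in the level of Mcl1 was not tested.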

How the data were processed

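The deposited matrices hold counts, whole numbers of UMIs per gene and cell, and per the file headers Cell Ranger 7.0.1 wrote them; mm10, Cell Ranger and Seurat 4.3.0 are named in the submitters' processing notes, with no mapping or filter settings. Tag oligos were counted in the same matrices. Totals were 14250603 to 30627357 UMIs per library, and with 1 library per group the precision given covers counting error only.

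Here, cells with at least 500 UMIs and 200 genes, at most 10% mitochondrial UMIs and no doublet call (Scrublet in scanpy 1.11.5, expected rate 0.06; 41, 42, 21 and 21 calls) were kept. Counts were scaled to 10000 per cell and logged. The 2000 most variable genes, without the 10 members and the 55 pathway genes, gave 30 principal components, 15 neighbours and Leiden clusters (leidenalg 0.10.2, resolution 1.0). A cluster was named by the class with the highest mean level of its markers, given at least 3 detected markers. A cluster of low depth with no marker among its 10 leading genes kept no name (1 of 25). Cells were assigned to an aliquot by their leading tag oligo, 3 per library.

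UMIs were summed per class and library. Ratios are log2 of CPM + 1, with exact conditional binomial 95% intervals (scipy 1.17.1) and exact Poisson intervals on levels. Genes with at least 100 UMIs in both groups together and classes of at least 50 cells were compared, the same way for every gene. All 10 members are named, and pathway genes are named where past 1.5-fold; the similar genes are the 3 of highest Pearson's r per member. The members, lists and rules were chosen with earlier results of these data known. The calculation was tested on simulated data. Alternatives were TMM scaling (edgeR 4.0.16 in R 4.3.3), other mitochondrial limits, clusterings, offsets, count minimums, folds and Zcwpw1 thresholds, and leaving out each aliquot. Thinning was applied to the shares of cells with a UMI and to the Zcwpw1 counts that set the groups, not to the ratios. Splitting the other B cells by cluster, leaving out clusters 17 or 19 and weighting clusters alike were chosen after seeing the data. Coordinates come from GENCODE on GRCm38, in which 32158 of 32285 gene IDs were found; promoters come from a RefSeq table of GRCm38.p6.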

Additional observations from a re-analysis of the deposited data

Results flagged for a closer look

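Bcl2a1b in B cells without high Zcwpw1 had age ratios of opposite sign in the 2 strains. Its log2 ratio of 20 over 12 months was -0.48 in BL/6 and 0.68 in SM/J, and in each strain the 3 aliquots of one age lay wholly on one side of those of the other. The BL/6 ratio was under 1.5-fold, and the SM/J ratio was 0.47, also under it, with CPM + 10. With 1 library per strain and age, the difference between the strains was not tested.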

How the results depend on the processing

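The 27 ratios of members called past 1.5-fold had 406 alternative values, where a setting applied and left enough UMIs: 20 of the 27 with at most 5% mitochondrial UMIs and 25 with the marker gate. Of these values, 405 had the direction reported and 56 fell under 1.5-fold; 10 of the 27 stayed past it in each alternative run on them. The reversal was Bcl2 in classical monocytes between strains at 12 months, 0.11 at Leiden resolution 0.5, where the classes are redrawn. Of 152 alternative counts, 117 were within 1.5 times the reported one. The reported counts of members were 8 (age, BL/6), 1 (age, SM/J), 10 (strain, 12 months), 3 (strain, 20 months) and 5 (Zcwpw1), and those of pathway genes 12, 11, 28, 28 and 17. With at most 5% mitochondrial UMIs the age counts in SM/J became 0 members and 18 pathway genes and the Zcwpw1 count 3 members. The SM/J age count of members became 2 at resolution 2.0, 2 with members in the clustering and 3 with called doublets kept, and the strain count at 20 months 1 with a marker gate per cell. With CPM + 10 the counts became 0 members (age, SM/J), 5 members and 17 pathway genes (strain, 12 months), 18 pathway genes (strain, 20 months), and 3 members and 9 pathway genes (Zcwpw1). With a minimum of 20 UMIs, which tests more genes, they became 13 and 23 (age, BL/6), 6 and 34 (age, SM/J), 17 and 56 (strain, 12 months) and 9 and 52 (strain, 20 months). At 2-fold they became 2 and 3, 0 and 3, 3 and 3, 6 pathway genes at 20 months, and 2 and 4 (Zcwpw1). Groups redrawn by thinned Zcwpw1 counts gave 0 members and 6 pathway genes for Zcwpw1. Apart from the minimum, the fold and the redrawn classes, the cause was not tested. Leaving out 1 aliquot (leave-one-out) gave 6 to 9, 1 to 2, 6 to 9, 2 to 3 and 5 to 6 members and 8 to 9, 7 to 10, 24 to 26, 24 to 26 and 14 to 16 pathway genes, in the same order. With at least 10 UMIs of Zcwpw1 the ratio of Mcl1 was 0.54. TMM scaling moved all log2 ratios of a comparison by over 0.1 in T cells with age in SM/J (-0.10), between strains in B cells at 20 months (0.11), T cells at 12 months (0.11), NK cells at 12 months (-0.155), classical monocytes (-0.16 and -0.18) and nonclassical monocytes (-0.14 and -0.10), and for Zcwpw1 (0.20). NK cells, 52 to 98 per library, limit what could be tested there. No paired analysis was possible because each group is 1 library and aliquots are not paired between groups.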
